A study of Mus musculus with 9 samples.

Results

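The replication-dependent histone genes and the linker histone (H1) genes were followed in poly(A) RNA from neural cells derived from mouse embryonic stem cells. A gene was a member if its mouse symbol was H1f, H2ac, H2bc, H3c or H4c followed by a number, or if its older symbol began with Hist1h, Hist2h, Hist3h or Hist4h. Of the 24100 genes in the table, 68 were members, 62 of them by their current symbol and 6 by their older symbol only (H4f16, H2bu2, H2bu1-ps, H2aw, H4bc24 and H2af-ps2). They comprised 10 H1, 17 H2A, 18 H2B, 10 H3 and 13 H4 genes. H4bc24 is counted among the H2B genes, because its older symbol is Hist1h2br. A further 6 genes of the RefSeq annotation fit the rule (H2ac18, H3c4, H2ac24, H2ac14, H2bc23 and H3c15). They were not among the 24100 genes and could not be analysed.

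The series holds 9 libraries, 3 in each of 3 groups. All cells carried a stably expressed PiggyBac transgene, delivered by a DNA transposon, that encodes histone H4 fused to an HA epitope tag. In the H4K91R group the tagged H4 has arginine in place of a lysine of its C-terminal part, in the H4K91Q group it has glutamine there, and in the H4WT group it is unaltered. The labels name no change to the cells' own H4 genes and give neither the transgene's promoter nor whether a group is a single clone. They also do not say whether the libraries of a group come from separate cultures, so the p-values measure the spread between these libraries, which may be technical.

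Replication-dependent histone genes supply the core and linker histones that package newly made DNA in S phase. Their messages are unusual among animal mRNAs: they have no introns and normally end just behind a stem-loop, which the stem-loop binding protein SLBP holds, instead of in a poly(A) tail. Some of these genes can also be read through to a downstream polyadenylation signal, and such tailed messages are known from differentiated cells. H1f0 and H1f10 encode linker histones made outside S phase as well, from ordinary polyadenylated messages. The libraries were made from poly(A) RNA, so the values below are read as the tailed fraction of histone RNA and not its total. Tails were not measured, and carry-over of untailed messages was not tested.

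The stem-loop is shown for 7 members whose levels carry the results. Each line gives a stem-loop in capitals with its flanking bases, taken from GENCODE M21 transcripts on the GRCm38 (mm10) genome.
H1f2 (chr13:23739507-23739532, plus strand): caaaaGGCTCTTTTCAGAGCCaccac
H2ac23 (chr13:21810893-21810918, plus strand): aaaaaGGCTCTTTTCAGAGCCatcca
H2ac19 (chr3:96239779-96239804, minus strand): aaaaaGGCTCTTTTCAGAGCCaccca
H2bu2 (chr11:58949344-58949369, plus strand): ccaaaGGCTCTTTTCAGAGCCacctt
H3c14 (chr3:96247322-96247347, plus strand): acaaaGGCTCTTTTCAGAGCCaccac
H4c18 (chr13:21831793-21831818, minus strand): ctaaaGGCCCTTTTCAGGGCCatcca
H4c9 (chr13:22040961-22040986, minus strand): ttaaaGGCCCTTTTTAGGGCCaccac
The 5 genes of the H1, H2A, H2B and H3 families in these lines share the same 16 letters, which are the form found most often among the members (22 members), while H4c18 and H4c9 have a GGCCC stem. A histone stem-loop was found in an annotated transcript of 42 of the 68 members, against 55 of 21901 protein-coding genes (0.251%). H1f0 and H1f10 held none. A polyadenylation signal (AATAAA or ATTAAA) lay in the last 50 bases of a transcript of 19 members, against 77.9% of protein-coding genes.

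Members with either kind of transcript end were among those that rose and those that fell. Of the 13 members called lower in either mutant, 11 had a stem-loop and 6 a polyadenylation signal at a transcript end. Of the 5 called higher, 2 had a stem-loop and 3 a signal. Of the 20 tested without a call, 11 had a stem-loop and 4 a signal. In 21 of the 42 members with a stem-loop, an annotated transcript ran more than 100 bases past it: H1f2 had a transcript of 840 bases beyond the stem-loop and H4c9 one of 330, whereas transcripts of H2ac23 and H4c18 ended 31 bases behind it. These are properties of the annotation, not ends measured in the libraries. Some annotated transcripts are shorter than the RefSeq span of the gene, as for H2ac13 (393 of 448 bases) and H2bc18 (381 of 493 bases). A stem-loop or signal beyond such an end would not have been found, so the counts above can miss some.

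The libraries held between 8970553 and 28887501 counts, and levels are given in CPM, counts scaled to a common library total, with library totals adjusted by TMM (the trimmed mean of M-values). A count of 0 allows up to 3 counts, or 0.111 to 0.367 CPM, and this covers counting error only. Markers of several cell types, neural ones among them, moved between the groups. The summed level of 5 neuronal markers was 709 to 886 CPM in H4K91R, 564 to 604 CPM in H4K91Q and 155 to 221 CPM in H4WT libraries, and all 5 were called higher in both mutants. That of 5 smooth muscle and mesenchyme markers was 3816 to 5023 CPM in H4K91R, 3585 to 3979 CPM in H4K91Q and 6640 to 7624 CPM in H4WT libraries, with 4 of 5 lower in each mutant and the collagen gene Col3a1 higher in H4K91R. Col3a1 makes this sum understate the fall, with means of 3733 CPM in H4K91R, 3373 CPM in H4K91Q and 2846 CPM in H4WT. The median log2 change of the 5 was -3.14 in H4K91R and -3.34 in H4K91Q. Acta2 averaged 315 CPM in H4K91R and 245 CPM in H4K91Q, against 2479 CPM in H4WT. The 5 neural progenitor markers, of which 4 were higher in each mutant and Nes was lower in H4K91Q, summed to 531 to 609 CPM in H4K91R, 391 to 444 CPM in H4K91Q and 209 to 278 CPM in H4WT. The 4 pluripotency markers summed to 14.7 to 24.4 CPM in H4K91R, 82.3 to 134 CPM in H4K91Q and 32.2 to 56.1 CPM in H4WT, with 3 lower in H4K91R and 4 higher in H4K91Q. No marker of these lists was at 0 in a library, and the part of this shift in the results below was not tested. In these bulk libraries, fewer cells of a type and less RNA per cell cannot be told apart.

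RNA of 12 histone genes in these poly(A) libraries was lower in both mutants than in H4WT, with members of all 5 families among them. That of H1f0, H1f10, H2ac23 and H2bu2 was higher in both. Of the 68 members, 38 had enough counts to be tested, 7 H1, 11 H2A, 7 H2B, 5 H3 and 8 H4 genes. In H4K91R against H4WT, 5 of the 38 were called higher (13.2%) and 12 lower (31.6%) by edgeR's quasi-likelihood test with Benjamini-Hochberg adjustment over all genes, at an adjusted p below 0.05. Over all 14761 tested genes, 20.9% were called higher and 25.1% lower, 46.0% in all, so a call as such is not unusual here. In H4K91Q against H4WT, 4 members were called higher (10.5%) and 13 lower (34.2%), beside 22.5% higher and 23.8% lower of all genes, 46.3% in all. The median log2 change of the 38 members was -0.61 in H4K91R and -0.53 in H4K91Q, beside -0.03 in H4K91R and 0.01 in H4K91Q over all tested genes.

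Both mutants were set against the same H4WT libraries, so their calls are not independent. Side by side, 4 members were called higher in both (H1f0, H1f10, H2ac23 and H2bu2), 12 lower in both, and none in opposite directions. The share of all tested genes called the same way in both mutants is not given here. These counts therefore do not show that the overlap is particular to histone genes. H2ac13 was called in H4K91R only and H4c9 in H4K91Q only, which does not show that the mutants differ at these genes: the test between the mutants called neither. With scaling by library size alone, the median of all genes moved by 0.18 on the log2 scale in H4K91R and by 0.17 in H4K91Q. The calls over all genes then split into 34.1% higher and 13.6% lower in H4K91R and into 37.6% higher and 14.0% lower in H4K91Q. The members then had 6 higher and 12 lower in each mutant, and their median stayed below that of all genes, by 0.59 in H4K91R and by 0.55 in H4K91Q.

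**Figure D1:**
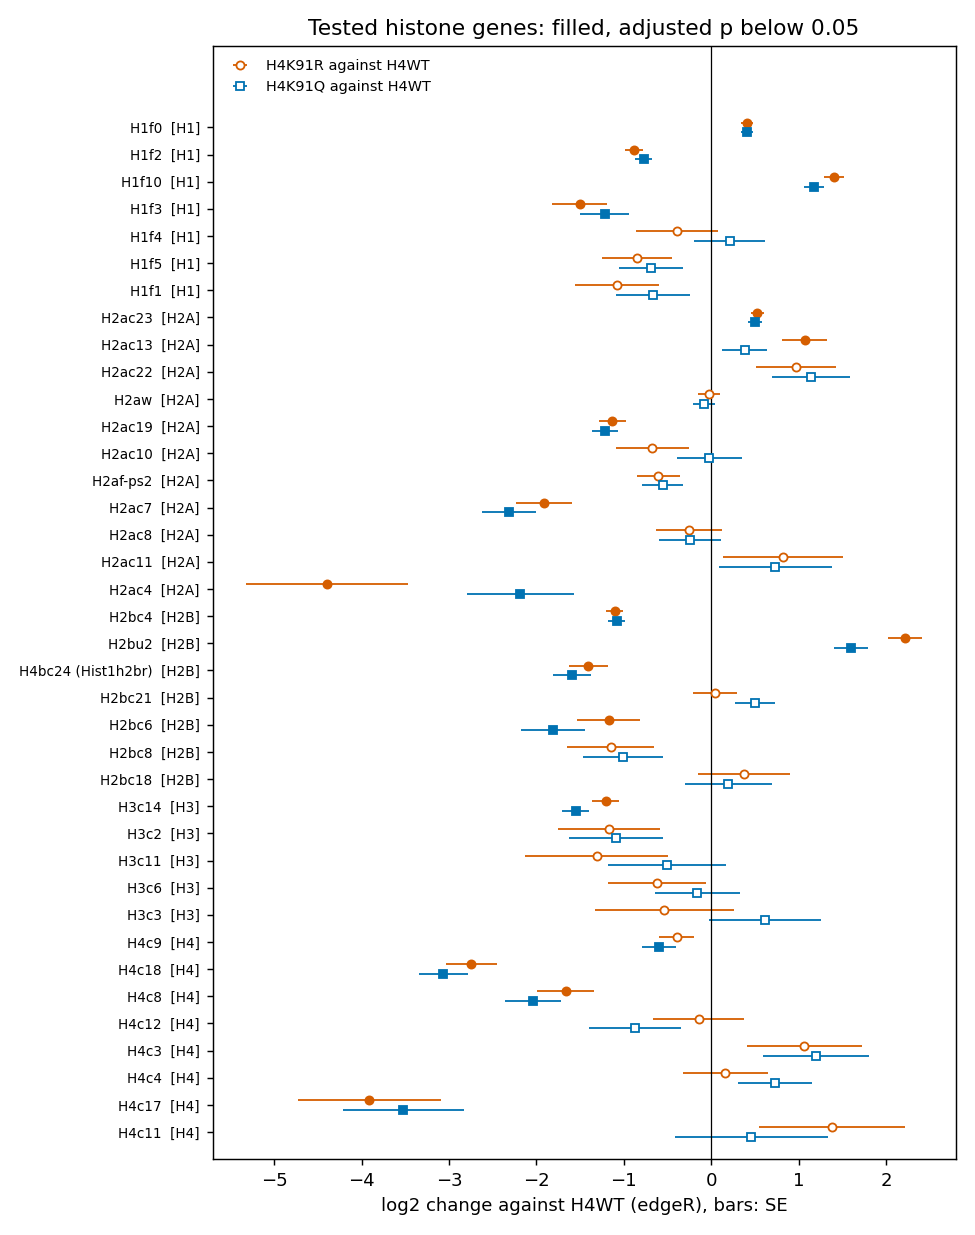
Log2 change of each of the 38 tested histone genes against H4WT (horizontal axis, edgeR estimate with its SE) in H4K91R (circles) and H4K91Q (squares), filled where the adjusted p is below 0.05. Most filled points lie left of 0, and those right of 0 belong to H1f0, H1f10, H2ac23, H2bu2 and, in H4K91R, H2ac13.

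Among the linker histones, RNA of the replication-independent genes H1f0 and H1f10 rose in both mutants. That of the replication-dependent genes H1f2 and H1f3 fell in both. H1f0, the linker histone of non-dividing and differentiated cells (chr15:79028212-79030504), had 232, 221 and 246 CPM in H4K91R and 247, 228 and 226 CPM in H4K91Q, against 178, 166 and 183 CPM in H4WT libraries. Every mutant library lay above every H4WT library. The log2 change was 0.41 ± 0.07 (SE) in H4K91R with an edgeR adjusted p of 0.000366, and 0.41 ± 0.07 in H4K91Q with 0.000354. H1f10, formerly H1fx (chr6:87980421-87981482), had 44.0, 48.2 and 53.5 CPM in H4K91R and 40.4, 39.8 and 44.1 CPM in H4K91Q, against 14.8, 20.1 and 18.98 CPM in H4WT libraries. The groups were far apart, and the mean was 2.702 times that of H4WT in H4K91R and 2.30 times in H4K91Q. The log2 change was 1.40 ± 0.11 in H4K91R (edgeR adjusted p 7.77e-07) and 1.18 ± 0.11 in H4K91Q (3.70e-06). Antisense genes overlap both loci (Gm49544 at H1f0 and Gm5577 at H1f10), and since the strand setting of the counting is not given, their reads cannot be told apart from those of the histone genes.

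H1f2, the most abundant of the replication-dependent H1 genes here (chr13:23738807-23739531), had 41.5, 30.0 and 35.8 CPM in H4K91R and 38.3, 38.0 and 40.3 CPM in H4K91Q, against 64.1, 66.6 and 68.3 CPM in H4WT libraries. The lowest H4WT library was above the highest mutant library by more than the range within any group. H1f2 fell by 0.89 ± 0.10 on the log2 scale in H4K91R (edgeR adjusted p 1.27e-05) and by 0.77 ± 0.10 in H4K91Q (3.69e-05). H1f3 had 1.67, 1.73 and 0.788 CPM in H4K91R and 1.76, 1.30 and 2.29 CPM in H4K91Q, against 3.01, 3.96 and 5.51 CPM in H4WT libraries. It fell by 1.51 ± 0.31 in H4K91R (edgeR adjusted p 0.00150) and fell by 1.22 ± 0.28 in H4K91Q (0.00349), and was the other H1 gene to fall. H1f4 did not pass the test, with 1.21, 0.944 and 0.788 CPM in H4K91R and 1.59, 2.34 and 0.586 CPM in H4K91Q, against 1.56, 1.04 and 1.71 CPM in H4WT libraries. Nor did H1f5, with 0.633, 0.551 and 0.197 CPM in H4K91R and 0.515, 0.448 and 0.703 CPM in H4K91Q, against 0.962, 0.926 and 0.735 CPM in H4WT libraries. The highest mutant libraries of H1f5 came close to the lowest H4WT library. H1f1, the last tested H1 gene, ranged from 0.157 to 0.980 CPM over all libraries without a call, and the germline H1 genes H1f6, H1f7 and H1f8 were too low to test. Within the summed H1 level, H1f0 made up 72.7% ± 0.5 in H4K91R and 73.4% ± 1.5 in H4K91Q, against 65.7% ± 1.8 in H4WT (SD, n = 3 each). The share of H1f2 was 11.1% ± 1.6 in H4K91R and 12.2% ± 0.6 in H4K91Q, against 24.8% ± 0.7 in H4WT. That of H1f10 was 15.1% ± 1.3 in H4K91R and 13.03% ± 0.9 in H4K91Q, against 6.7% ± 1.1 in H4WT.

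**Figure D2:**
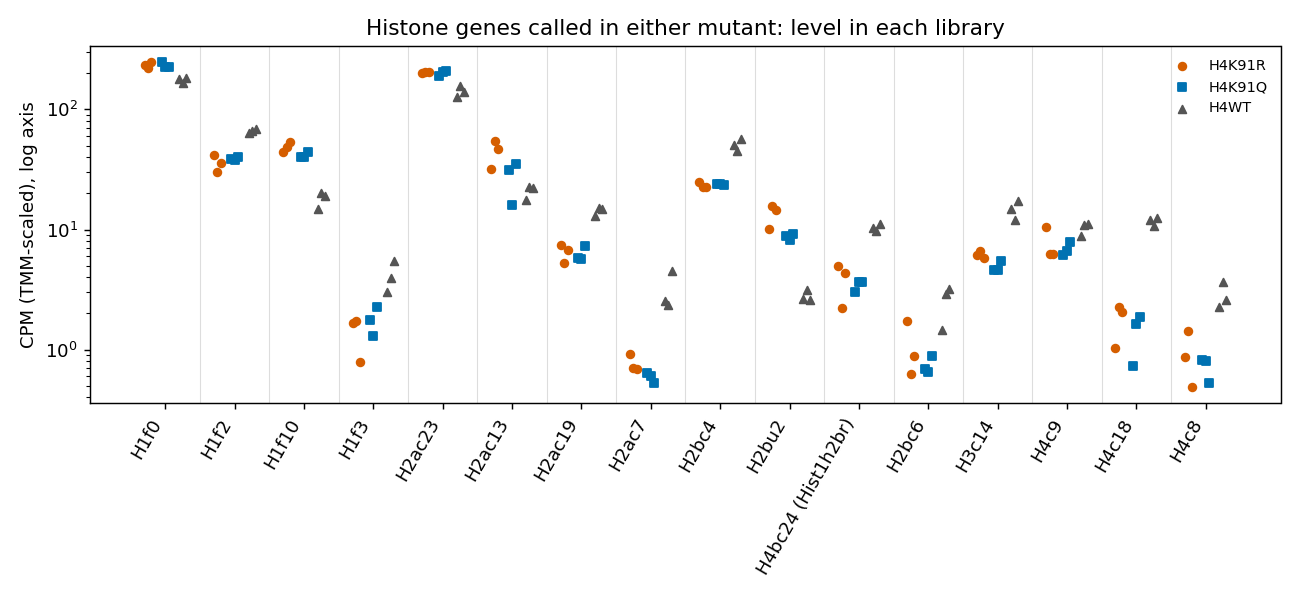
Level in each library (CPM, log axis) of the 16 histone genes called in either mutant whose mean reached 1 CPM, with H4K91R, H4K91Q and H4WT libraries from left to right for each gene. H1f0, H1f10, H2ac23 and H2bu2 are higher in the mutant libraries than in H4WT, and H4c18 shows the widest gap below it.

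The H2A genes moved in both directions: H2ac23 rose in both mutants, H2ac13 rose in H4K91R, and H2ac19, H2ac7 and the scarce H2ac4 fell in both. H2ac23 (chr13:21810367-21810918) was the histone gene with the highest level per kb of RefSeq span. It averaged 329 CPM per kb over the 9 libraries, beside 93.4 for H1f0 and 64.8 for H1f2. These values are only roughly comparable, since a span can differ from what is transcribed. The span of H1f2 is 725 bases and its annotated transcript has 1560. A stem-loop of H2ac23 was also found outside its span, at chr13:21833026-21833049. H2ac23 had 201, 205 and 204 CPM in H4K91R and 189, 204 and 207 CPM in H4K91Q, against 126, 156 and 141 CPM in H4WT libraries. All mutant libraries were above all H4WT libraries, and the log2 change was 0.53 ± 0.08 in H4K91R (edgeR adjusted p 0.000116) and 0.50 ± 0.08 in H4K91Q (0.000183). Only 12.1% of the 31-base words in its transcripts are found in no other gene, so its counts could be divided among near-identical H2A genes, and RefSeq joins under it a pair of older names, Hist1h2ao and Hist1h2ap.

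H2ac13 had 31.7, 55.1 and 46.5 CPM in H4K91R and 31.3, 15.9 and 35.1 CPM in H4K91Q, against 17.7, 22.6 and 22.2 CPM in H4WT libraries. It was called higher in H4K91R (log2 change 1.07 ± 0.26, edgeR adjusted p 0.00426) and not in H4K91Q (0.38 ± 0.26, 0.246), where replicate 2 fell below all H4WT libraries; without that library it was called (0.65, adjusted p 0.0168). H2ac22, a near-identical copy, had 30.8, 7.47 and 34.8 CPM in H4K91R and 19.6, 42.1 and 19.98 CPM in H4K91Q, against 15.03, 9.52 and 14.2 CPM in H4WT libraries. The libraries in which it was low or high were those in which H2ac13 stood the other way: in replicate 2 of H4K91R H2ac22 was lowest and H2ac13 highest, and in replicate 2 of H4K91Q the reverse. H2ac22 did not pass the test (0.97 ± 0.46 in H4K91R, edgeR adjusted p 0.0997, and 1.14 ± 0.45 in H4K91Q, 0.0522). It was called higher in 3 of 15 alternatives in H4K91R, among them without H4K91R replicate 2 (1.40, adjusted p 0.00424), and in 9 of 15 in H4K91Q. These 9 include the replicate number as a block (1.17, adjusted p 0.0442) and leaving out H4K91R replicate 1 (0.0461), 2 (0.00717) or 3 (0.0416) or H4K91Q replicate 1 (0.0441) or 3 (0.0492). Summed, H2ac13 and H2ac22 had 62.5, 62.5 and 81.2 CPM in H4K91R and 50.9, 58.0 and 55.1 CPM in H4K91Q, against 32.7, 32.2 and 36.4 CPM in H4WT libraries. The coefficient of variation of the sum was 15.7% in H4K91R, 6.56% in H4K91Q and 6.80% in H4WT, whereas that of H2ac22 alone was 60.6% in H4K91R, 47.4% in H4K91Q and 23.01% in H4WT. No p is given for the sum, which was formed after the single values were seen; 7.99% of the 31-base words of H2ac13 and 11.02% of those of H2ac22 are unique to the gene.

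**Figure D3:**
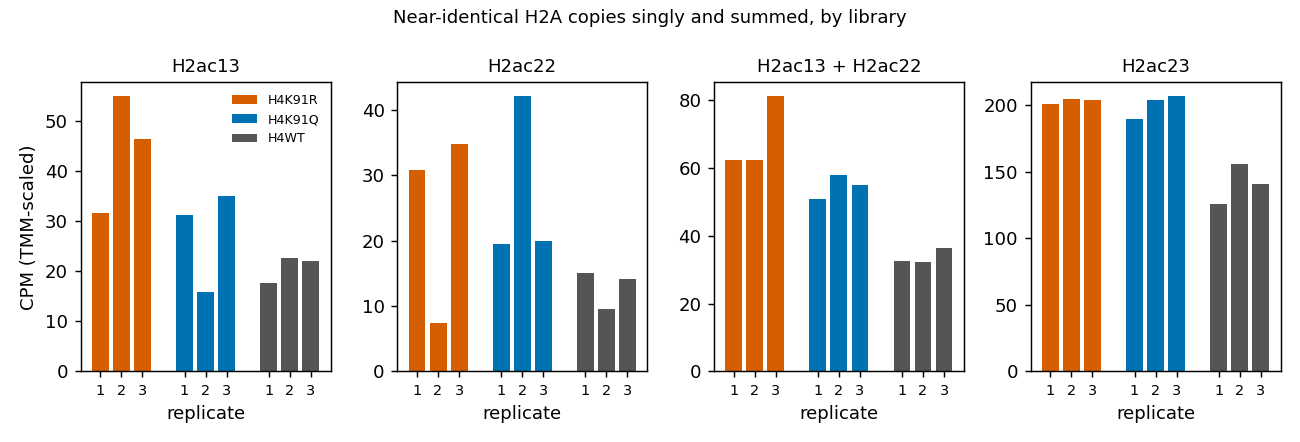
Level (CPM, bars from 0) of H2ac13, H2ac22, their sum and H2ac23 in each library, by replicate number. H2ac13 is above H2ac22 in the 3 H4K91R libraries, most widely in replicate 2, and H2ac22 is above H2ac13 in replicate 2 of H4K91Q, and their sum lies above the H4WT bars in all 6 mutant libraries.

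H2ac19 (chr3:96239779-96240374) had 7.48, 5.27 and 6.79 CPM in H4K91R and 5.79, 5.63 and 7.27 CPM in H4K91Q, against 12.9, 15.04 and 14.9 CPM in H4WT libraries. The groups did not overlap, and the gene fell by 1.13 ± 0.16 on the log2 scale in H4K91R (edgeR adjusted p 6.09e-05) and by 1.21 ± 0.15 in H4K91Q (2.91e-05). None of its 31-base words is unique, all of them occurring in Hist2h2aa1 too, so reads of that gene cannot be told apart from its own. The antisense gene Gm20632 overlaps H2ac19. H2ac7 had 0.921, 0.708 and 0.689 CPM in H4K91R and 0.643, 0.598 and 0.527 CPM in H4K91Q, against 2.53, 2.37 and 4.53 CPM in H4WT libraries. It fell by 1.91 ± 0.32 in H4K91R (edgeR adjusted p 0.000316) and by 2.31 ± 0.31 in H4K91Q (5.66e-05). These estimates rest on few counts: 16, 9 and 7 in H4K91R and 15, 12 and 9 in H4K91Q libraries. Only 31.7% of the 31-base words of H2ac7 are unique. H2ac4 held 0, 0 and 3 counts in H4K91R and 17, 0 and 6 counts in H4K91Q, against 12, 48 and 16 counts in H4WT libraries, and was called lower in H4K91R (edgeR adjusted p 0.00167) and in H4K91Q (0.0102); at so few counts no fold is given. H2aw, an H2A gene outside the large clusters, had 21.5, 18.2 and 22.8 CPM in H4K91R and 17.6, 19.5 and 23.3 CPM in H4K91Q, against 22.4, 21.9 and 19.3 CPM in H4WT libraries. Its groups overlapped throughout (log2 change -0.03 ± 0.12 in H4K91R, edgeR adjusted p 0.866, and -0.08 ± 0.12 in H4K91Q, 0.606), and Trim17 overlaps it on the same strand. The other 4 tested H2A genes (H2ac10, H2af-ps2, H2ac8 and H2ac11) were between 0 and 4.45 CPM in every library and were not called.

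The H2B genes held the largest rise among the members, that of H2bu2, while H2bc4, H4bc24 and H2bc6 fell in both mutants. H2bu2 (chr11:58948911-58949372), formerly Hist3h2ba, had 10.1, 15.8 and 14.6 CPM in H4K91R and 8.75, 8.17 and 9.26 CPM in H4K91Q, against 2.65, 3.11 and 2.57 CPM in H4WT libraries. Every H4K91R library was above every H4K91Q library, and these above every H4WT library. The mean was 4.86 times that of H4WT in H4K91R and 3.14 times in H4K91Q, and the log2 change was 2.22 ± 0.19 in H4K91R (edgeR adjusted p 1.31e-06) and 1.60 ± 0.19 in H4K91Q (2.37e-05). H2bc4 (chr13:23684199-23692480), formerly Hist1h2bc and the most abundant H2B gene by CPM, had 25.03, 22.6 and 22.6 CPM in H4K91R and 24.1, 23.9 and 23.6 CPM in H4K91Q, against 50.9, 44.9 and 57.1 CPM in H4WT libraries. All mutant libraries were at a similar level well below H4WT: it fell by 1.11 ± 0.10 on the log2 scale in H4K91R (edgeR adjusted p 1.35e-06) and by 1.08 ± 0.09 in H4K91Q (1.96e-06). H4bc24, the H2B gene formerly named Hist1h2br, had 4.95, 2.20 and 4.33 CPM in H4K91R and 3.002, 3.64 and 3.63 CPM in H4K91Q, against 10.3, 9.63 and 11.1 CPM in H4WT libraries. It fell by 1.41 ± 0.22 in H4K91R (edgeR adjusted p 0.000202) and by 1.59 ± 0.22 in H4K91Q (6.14e-05), with 10.5% of its 31-base words unique.

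H2bc6 had 1.73, 0.629 and 0.886 CPM in H4K91R and 0.686, 0.648 and 0.879 CPM in H4K91Q, against 1.44, 2.89 and 3.18 CPM in H4WT libraries. It fell by 1.81 ± 0.36 in H4K91Q (edgeR adjusted p 0.00127) and by 1.17 ± 0.36 in H4K91R (0.0177), where replicate 1 overlapped the H4WT libraries. The H4K91R call was lost without H4K91R replicate 2 (adjusted p 0.0757) or 3 (0.0510) and without H4WT replicate 2 (0.0950) or 3 (0.0525), and the gene's span overlaps H1f4 on the same strand. H2bc21 had 2.01, 2.28 and 2.66 CPM in H4K91R and 3.09, 3.09 and 3.22 CPM in H4K91Q, against 1.44, 2.19 and 3.06 CPM in H4WT libraries. It was not called (0.04 ± 0.25 in H4K91R, edgeR adjusted p 0.905, and 0.50 ± 0.23 in H4K91Q, 0.0925), but was called higher in H4K91Q without H4WT replicate 3 (0.68, adjusted p 0.0369) and with scaling by library size (0.66, 0.0272). The other 2 tested H2B genes, H2bc8 and H2bc18, were between 0 and 2.45 CPM without a call. Of the summed H2B level, H2bu2 made up 28.4% ± 6.3 in H4K91R and 19.9% ± 1.4 in H4K91Q, against 3.8% ± 0.7 in H4WT (SD, n = 3 each), and H2bc4 made up 49.3% ± 3.1 in H4K91R and 54.4% ± 1.1 in H4K91Q, against 69.2% ± 3.1 in H4WT.

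Promoters are shown for H2bu2, which had the largest rise among the members, and for H4c18, which had the largest fall among those of at least 1 CPM. Each line runs from 250 bases before to 50 bases after the start in RefSeq on GRCm38.p6, with matches of the TATA box TATAAA, the CCAAT box and the octamer ATTTGCAT on either strand in capitals.
H2bu2 (chr11:58948661-58948960, plus strand): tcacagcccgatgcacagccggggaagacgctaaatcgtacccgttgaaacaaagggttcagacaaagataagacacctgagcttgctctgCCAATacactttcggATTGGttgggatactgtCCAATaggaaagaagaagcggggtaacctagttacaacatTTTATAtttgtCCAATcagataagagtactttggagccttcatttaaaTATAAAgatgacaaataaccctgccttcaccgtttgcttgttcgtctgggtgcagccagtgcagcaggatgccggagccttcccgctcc
H4c18 (chr13:21832148-21832447, minus strand): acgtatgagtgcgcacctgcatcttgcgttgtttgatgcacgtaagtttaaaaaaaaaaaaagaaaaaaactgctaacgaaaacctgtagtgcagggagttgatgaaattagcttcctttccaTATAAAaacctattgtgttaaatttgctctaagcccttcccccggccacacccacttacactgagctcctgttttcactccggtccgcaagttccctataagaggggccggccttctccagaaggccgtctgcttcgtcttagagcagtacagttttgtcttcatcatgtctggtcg
The H2bu2 window holds 4 matches of CCAAT and 2 of TATAAA, and the H4c18 window 1 match of TATAAA. Of the 61 members with a promoter in the table, 33 held TATAAA (54.1%), 49 CCAAT (80.3%) and 14 the octamer ATTTGCAT (22.95%), beside 13.6%, 37.4% and 1.74% of the 32851 promoters in the table. CCAAT was in all 16 H2A, all 15 H2B and all 8 H3 promoters, in 7 of 10 H1 promoters and in 3 of 12 H4 promoters. The octamer was in 7 H2A and 7 H2B promoters and in none of the H1, H3 and H4 promoters. These matches describe letters in a window and not binding. The windows of H1f0 and H1f10 hold none of these motifs.

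Among the H3 genes, H3c14 fell in both mutants and none rose. H3c14 (chr3:96246685-96247348), formerly Hist2h3c1, had 6.16, 6.61 and 5.81 CPM in H4K91R and 4.59, 4.63 and 5.51 CPM in H4K91Q, against 14.8, 12.0007 and 17.1 CPM in H4WT libraries. The groups of mutant libraries lay close together and below all H4WT libraries, and the gene fell by 1.21 ± 0.15 on the log2 scale in H4K91R (edgeR adjusted p 3.45e-05) and by 1.55 ± 0.15 in H4K91Q (4.71e-06). None of its 31-base words is unique, so reads of other genes may be counted under it, and Gm20634 overlaps it on the same strand. H3c2 had 0.921, 0.708 and 0 CPM in H4K91R and 0.815, 0.498 and 0.586 CPM in H4K91Q, against 2.53, 0.963 and 1.10 CPM in H4WT libraries. No mutant library reached an H4WT library, but H3c2 was not called (-1.17 ± 0.58 in H4K91R, edgeR adjusted p 0.119, and -1.09 ± 0.53 in H4K91Q, 0.113). In H4K91R 1 of 15 alternatives called it lower, the replicate number as a block (-1.33, adjusted p 0.0395). In H4K91Q 2 of 15 did, that block (-1.18, 0.0432) and leaving out H4K91R replicate 3 (0.0448). Over the alternatives the adjusted p reached 0.371 in H4K91R and 0.377 in H4K91Q. H3c11 had 0, 0.786 and 0.492 CPM in H4K91R and 0.129, 1.25 and 0.703 CPM in H4K91Q, against 0.962, 0.889 and 1.10 CPM in H4WT libraries. H3c6 had 0.518, 0.472 and 0.394 CPM in H4K91R and 0.901, 0.847 and 0.117 CPM in H4K91Q, against 0.721, 0.778 and 0.612 CPM in H4WT libraries. Neither was called, and nor was H3c3, which was below 1.45 CPM in all libraries.

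The H4 genes matter here because the transgene encodes H4, and whether RNA of the transgene was counted under an endogenous H4 gene was not tested. H4c18, H4c8 and H4c17 fell in both mutants, H4c9 fell in H4K91Q, and no H4 gene rose. H4c18 (chr13:21831792-21832197), formerly Hist1h4n, had 1.04, 2.28 and 2.07 CPM in H4K91R and 0.729, 1.64 and 1.87 CPM in H4K91Q, against 11.9, 10.7 and 12.5 CPM in H4WT libraries. The groups were widely separated, and the H4WT mean was 6.52 times that of H4K91R and 8.26 times that of H4K91Q. H4c18 fell by 2.75 ± 0.29 on the log2 scale in H4K91R (edgeR adjusted p 7.17e-06) and by 3.07 ± 0.28 in H4K91Q (2.98e-06). H4c17 held 4, 0 and 0 counts in H4K91R and 8, 0 and 0 counts in H4K91Q, against 12, 40 and 16 counts in H4WT libraries, and was called lower in H4K91R (edgeR adjusted p 0.00164) and in H4K91Q (0.00111). It is a close relative of H4c18, with 8.33% and 12.5% of their 31-base words unique to each. Together they had 1.27, 2.28 and 2.07 CPM in H4K91R and 1.07, 1.64 and 1.87 CPM in H4K91Q, against 13.3, 12.2 and 14.5 CPM in H4WT libraries. The gap was also present in the sum.

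H4c9 (chr13:22040960-22041362) had the highest mean level of the H4 genes, with 10.6, 6.21 and 6.30 CPM in H4K91R and 6.13, 6.63 and 7.85 CPM in H4K91Q, against 8.78, 10.96 and 11.02 CPM in H4WT libraries. It fell by 0.60 ± 0.20 in H4K91Q (edgeR adjusted p 0.0234) and was not called in H4K91R (-0.39 ± 0.20, 0.125), where replicate 1 lay among the H4WT libraries. Without that replicate it was called lower in H4K91R as well (-0.73, adjusted p 0.00459). The H4K91Q call was lost with scaling by library size (adjusted p 0.0794), without H4K91Q replicate 1 (0.0845) or 2 (0.0593) and without H4WT replicate 2 (0.0870) or 3 (0.0598). H4c8 (chr13:23531044-23531478) had 0.863, 1.42 and 0.492 CPM in H4K91R and 0.815, 0.797 and 0.527 CPM in H4K91Q, against 2.28, 3.67 and 2.57 CPM in H4WT libraries. It fell by 1.67 ± 0.33 in H4K91R (edgeR adjusted p 0.00111) and by 2.04 ± 0.32 in H4K91Q (0.000196), with no overlap between mutants and H4WT. H4c12 was not called, with 1.84, 0.472 and 0.886 CPM in H4K91R and 0.643, 0.548 and 0.879 CPM in H4K91Q, against 0.601, 0.963 and 2.57 CPM in H4WT libraries. The other 3 tested H4 genes (H4c3, H4c4 and H4c11) were at or below 1.72 CPM in every library and were not called.

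Summed over all members of a family, tested or not, the levels separated into H1 and H2A above H4WT and H2B, H3 and H4 below it. The H1 genes summed to 321 ± 17.6 CPM in H4K91R and 318 ± 10.96 CPM in H4K91Q, against 268 ± 10.5 CPM in H4WT, and the H2A genes to 308 ± 15.3 CPM in H4K91R and 290.1 ± 15.3 CPM in H4K91Q, against 224 ± 16.04 CPM in H4WT (SD, n = 3 each). In these sums H1f0 and H2ac23 outweigh the genes that fell. The H2B genes summed to 47.5 ± 0.109 CPM in H4K91R and 43.9 ± 0.519 CPM in H4K91Q, against 73.6 ± 7.52 CPM in H4WT, with H2bu2 among them. The H3 genes summed to 8.90 ± 1.18 CPM in H4K91R and 8.61 ± 1.14 CPM in H4K91Q, against 19.4 ± 2.15 CPM in H4WT, and the H4 genes to 14.9 ± 2.05 CPM in H4K91R and 13.1 ± 0.0774 CPM in H4K91Q, against 31.2 ± 3.69 CPM in H4WT. In each family, all 3 libraries of either mutant lay on the same side of all 3 H4WT libraries. No p is given for a sum over members.

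**Figure D4:**
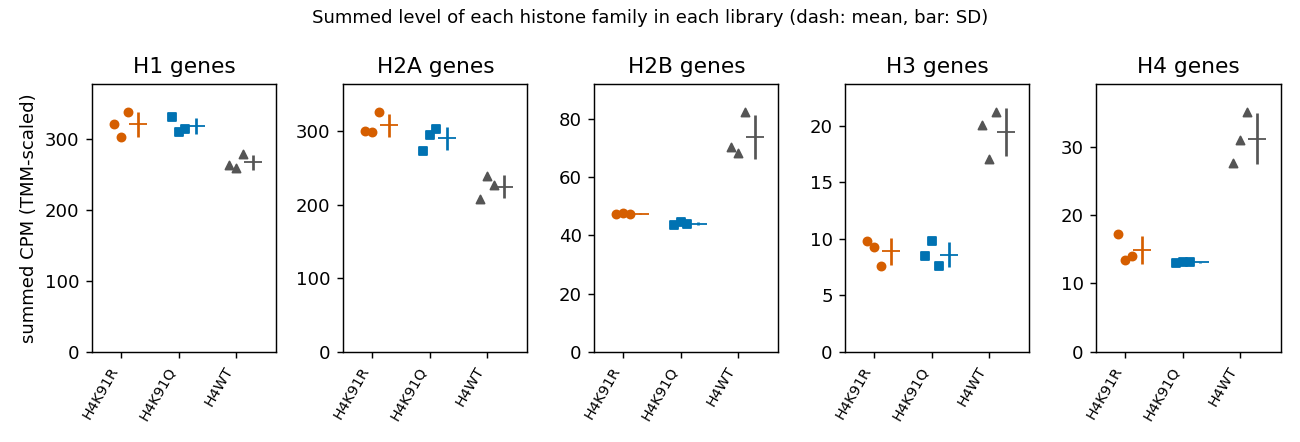
Summed level (CPM, axes from 0) of all H1, H2A, H2B, H3 and H4 genes in each library of H4K91R, H4K91Q and H4WT, with the mean and SD beside the points. The mutant libraries are above H4WT for H1 and H2A and below it for H2B, H3 and H4, where H4 averages 14.9 CPM in H4K91R and 13.1 CPM in H4K91Q, against 31.2 CPM in H4WT.

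Most members lie in a large cluster on mouse chromosome 13, which was divided here into groups by position. In the last group (chr13:23531044-23934913), 30 members with 17 tested, 7 were called lower in each mutant and none higher: H1f2, H1f3, H2ac7, H2ac4, H2bc4, H2bc6 and H4c8. Over all genes, 25.1% were lower and 20.9% higher in H4K91R, and 23.8% lower and 22.5% higher in H4K91Q. In the first group (chr13:21715711-21837530), 16 members with 10 tested, H4c17, H4c18 and H4bc24 were lower in both mutants while H2ac23 was higher in both and H2ac13 in H4K91R. Genes that rose and genes that fell were neighbours there: H2ac23 lies next to H4c17 among the tested genes, and rose while H4c17 fell. In the middle group H4c9 was the 1 called gene, of 2 tested. In the chromosome 3 cluster (chr3:96219885-96270192), H2ac19 and H3c14 fell in both mutants, of 4 tested. The members that rose in both mutants other than H2ac23 lie elsewhere, H2bu2 on chromosome 11, H1f0 on chromosome 15 and H1f10 on chromosome 6. These counts are descriptions, and no test of position was made.

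**Figure D5:**
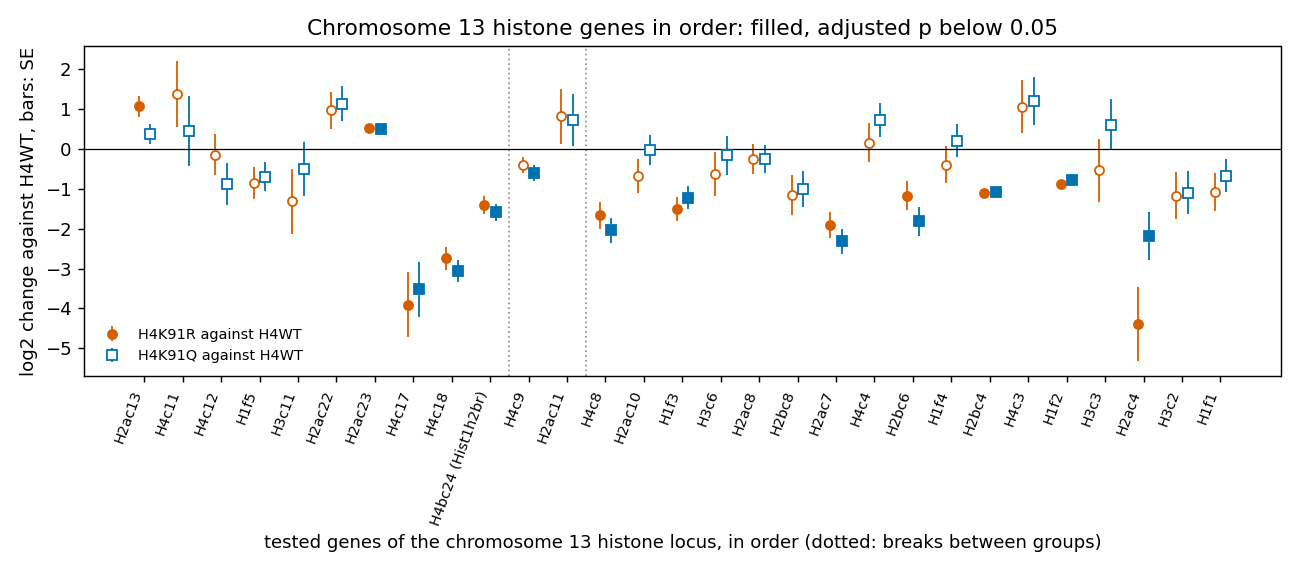
Log2 change against H4WT (with SE) of the tested genes of the chromosome 13 histone cluster in their order along the chromosome, H4K91R as circles and H4K91Q as squares, filled where the adjusted p is below 0.05. Right of the second dotted line, in the last group, all filled points are below 0, while the first group has filled points on both sides of it. The points of H2ac4 and H4c17 rest on few counts, and their depth depends on the fit.

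A single histone gene was called between the mutants. In H4K91Q against H4K91R, edgeR called 1 of the 38 members lower (2.63%) and none higher, beside 2.78% lower and 2.37% higher of all genes, 5.16% in all. DESeq2 also called 1 lower and none higher, and 3 members had an unadjusted p below 0.05 in edgeR. The called gene was H2bu2, with a log2 change of -0.61 ± 0.16 and an edgeR adjusted p of 0.0432. That call was lost when the fit held only the mutants (adjusted p 0.0562), and without H4K91R replicate 2 (0.174) or 3 (0.0876), any H4K91Q replicate (0.0527 to 0.154) or H4WT replicate 3 (0.0508). The median log2 change of the members between the mutants was 0.02, beside 0.01 over all genes.

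Histone variants made outside S phase were taken as a list. Over all genes, 20.9% were called higher and 25.1% lower in H4K91R, and 22.5% higher and 23.8% lower in H4K91Q. Of 11 variants tested, 7 were called higher and none lower in H4K91R, and 9 higher and 1 lower in H4K91Q, with a median log2 change of 0.39 in each mutant. Over all genes it was -0.03 in H4K91R and 0.01 in H4K91Q. H1f0 and H1f10 belong to this list too. Macroh2a2, which encodes a macroH2A variant of silent chromatin, averaged 99.1 ± 6.29 CPM in H4K91R and 90.5 ± 1.32 CPM in H4K91Q, against 50.3 ± 2.69 CPM in H4WT (SD, n = 3 each). It rose by 0.97 ± 0.07 on the log2 scale in H4K91R (edgeR adjusted p 4.33e-07) and by 0.84 ± 0.07 in H4K91Q (1.94e-06). H3f3a, a gene for the replacement histone H3.3, rose by 0.47 ± 0.09 in H4K91R (edgeR adjusted p 0.000679) and by 0.58 ± 0.09 in H4K91Q (0.000159). H2az2, a gene for the variant H2A.Z, rose by 0.71 ± 0.12 in H4K91R (edgeR adjusted p 0.000354) and by 0.74 ± 0.12 in H4K91Q (0.000251). H2aj, an H2A variant, was the 1 that fell, by 0.64 ± 0.13 in H4K91Q (edgeR adjusted p 0.00152).

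The genes that switch on and process histone messages were taken as 3 lists, whose counts stand beside 46.0% of all genes called in H4K91R and 46.3% in H4K91Q. Of 18 genes for histone gene transcription, 2 were higher and 3 lower in H4K91R, and 3 higher and 1 lower in H4K91Q, with median log2 changes of -0.04 in H4K91R and 0.04 in H4K91Q. E2f2 and E2f1, transcription factors of the G1 to S step, rose in both mutants, E2f2 by 0.84 ± 0.17 in H4K91R and 0.66 ± 0.17 in H4K91Q and E2f1 by 0.35 ± 0.08 in H4K91R and 0.30 ± 0.08 in H4K91Q. Yy1, a zinc finger transcription factor, fell by 0.31 ± 0.07 in H4K91R and 0.23 ± 0.07 in H4K91Q. Ccne1, a cyclin of the same step, fell by 0.28 ± 0.08 in H4K91R (edgeR adjusted p 0.00895). Npat, the coactivator of histone genes, was not called, with 67.9 ± 5.65 CPM in H4K91R and 69.5 ± 5.74 CPM in H4K91Q, against 73.3 ± 2.92 CPM in H4WT.

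Of 20 genes for 3′ end processing, 2 were higher and 2 lower in H4K91R, and 3 higher and 4 lower in H4K91Q, with median log2 changes of -0.01 in H4K91R and -0.05 in H4K91Q. Cstf2t, a subunit of a polyadenylation factor, rose by 0.22 ± 0.08 in H4K91R and by 0.41 ± 0.08 in H4K91Q. Its partner Cstf3 fell by 0.31 ± 0.07 in H4K91R and 0.27 ± 0.06 in H4K91Q, and Ncbp1, a cap-binding protein, by 0.21 ± 0.06 in H4K91R and 0.18 ± 0.06 in H4K91Q. Sympk, a scaffold of the cleavage machinery, fell by 0.22 ± 0.06 in H4K91Q (edgeR adjusted p 0.0128). Slbp, the stem-loop binding protein, was called higher in H4K91Q alone (0.21 ± 0.08, edgeR adjusted p 0.0457), and its difference between the mutants did not pass the test (0.13 ± 0.08, 0.345). Of 17 genes for histone RNA decay and translation, none was higher and 3 were lower in H4K91R, and 2 were higher and 3 lower in H4K91Q, with median log2 changes of -0.04 in H4K91R and 0.07 in H4K91Q. Ddx19b, an RNA helicase, fell by 0.35 ± 0.08 in H4K91R and 0.27 ± 0.07 in H4K91Q. Mif4gd, which acts with SLBP in translation, fell by 0.30 ± 0.10 in H4K91R, and in H4K91Q the translation initiation factor Eif4g3 fell by 0.30 ± 0.10 and Lsm6, of the LSM ring that binds histone messages for decay, rose by 0.34 ± 0.10.

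Of 24 genes of the DNA synthesis phase, which include Slbp, 4 were higher and 1 lower in H4K91R, and 9 higher and 2 lower in H4K91Q, with median log2 changes of 0.11 in H4K91R and 0.14 in H4K91Q. These counts stand beside 20.9% higher and 25.1% lower of all genes in H4K91R and 22.5% higher and 23.8% lower in H4K91Q. In H4K91Q Mcm6, of the replicative helicase, rose by 0.37 ± 0.07 and Pcna, the polymerase clamp, by 0.36 ± 0.08. Cdc6, a licensing factor, fell by 0.29 ± 0.07 in H4K91R and 0.35 ± 0.07 in H4K91Q. A further list of 4 genes set cycling against resting cells, and 1 of them was higher and 1 lower in each mutant. Mki67, a marker of cycling cells, was not called, with 231 ± 27.0 CPM in H4K91R and 214 ± 35.5 CPM in H4K91Q, against 234 ± 38.2 CPM in H4WT. Top2a, a topoisomerase of dividing cells, was not called either. Cdkn1c, an inhibitor of cyclin-dependent kinases, rose by 1.11 ± 0.17 in H4K91R and 1.49 ± 0.17 in H4K91Q, and Cdkn1a, another, fell by 1.06 ± 0.10 in H4K91R and 1.30 ± 0.10 in H4K91Q. None of the genes in the lists of replacement histones, histone gene transcription, 3′ end processing, decay and DNA synthesis was called between the mutants.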

How the data were processed

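QIAGEN RNeasy kits were used for RNA and NEBNext Ultra II kits for libraries of poly(A) RNA, per the labels' protocols. The authors deposited expected counts per gene, all whole numbers. Salmon 0.8.2, the genome build mm10 and DESeq2 are named, without roles, per the submitters' processing notes. Not given in the sources used here are the annotation, strand setting and rounding. Reads that fit several genes are split among them by Salmon, so near-identical histone copies carry uncertain values. Symbols were found for 24045 of 24100 gene IDs in a RefSeq table for GRCm38.p6, whose coordinates and promoters were used, and transcripts came from GENCODE M21 on GRCm38.

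The counts of all 9 libraries were fitted in edgeR 4.0.16 (R 4.3.3), with TMM scaling (factors 0.911 to 1.06) and filterByExpr by group at a minimum count of 10, which kept 14761 genes. Quasi-likelihood tests were two-sided, with 1 mean per group and Benjamini-Hochberg adjustment over all tested genes at 0.05. SE is the log2 change divided by the square root of F. The fit's common biological coefficient of variation was 8.82%, and the script was tested on simulated data with a fixed coefficient of variation of 0.09. Over the comparisons it recovered 4% to 12% of 1.2-fold changes and 70% to 78% of 1.5-fold changes. A gene that was not called may therefore still have changed. The simulation gave every gene the same spread, and some members vary more, so larger changes can go uncalled too. H2ac22 in H4K91Q (log2 change 1.14, coefficient of variation 47.4%) and H3c2 in H4K91R (-1.17) were not called. Alternatives were RLE and library-size scaling, no filter, DESeq2 1.42.0, the compared groups only, replicate number as a block, and leaving out each library.

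Same-numbered libraries deviated together in H4K91Q and H4WT (correlations 0.172, 0.198 and 0.141, all above the limit of 0.1). Differently numbered libraries of these groups reached at most 0.0359, but those of H4K91R and H4WT reached 0.265. Passing the limit therefore does not show that the numbers pair libraries, and the labels name no pairing. The main tests were unpaired, and the replicate block was an alternative. H4K91R and H4WT (0.174, 0.0107 and -0.163) and H4K91Q and H4K91R (0.198, -0.0518 and -0.0257) did not meet that limit.

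The members and lists were chosen with earlier results of these data known. Values in every library are given for the 6 H1 genes and the 4 genes of each other family with the highest mean CPM, and for the 10 called genes of at least 1 CPM with the largest log2 change; H2ac4 and H4c17 were added after their values were seen. From each further list, up to 4 genes with the smallest adjusted p were named, apart from 1 gene of the DNA synthesis list that is not reported here; Npat, Slbp, Mki67 and Top2a were added for their roles after the values were seen. The lists were replacement histones, histone gene transcription, 3′ end processing, decay and translation, DNA synthesis phase, and markers of neural progenitors, neurons, smooth muscle and mesenchyme, pluripotency and cycling. Of the 68 members, 30 did not pass the filter; their highest mean was 0.465 CPM, and H1f8 and H2bc1 held no count in any library.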

Additional observations from a re-analysis of the deposited data

Results flagged for a closer look

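H2bu2 was picked out because its change against H4WT differed between the mutants by the test of that difference. It was lower in H4K91Q than in H4K91R, with a log2 difference of -0.61 ± 0.16 and an edgeR adjusted p of 0.0432. All 3 H4K91Q libraries (8.17 to 9.26 CPM) lay below all 3 H4K91R libraries (10.1 to 15.8 CPM). Over its 15 alternatives the adjusted p ran from 0.00967 to 0.174.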

How the results depend on the processing

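No alternative turned the direction of a call among the members given in every library, apart from H2ac4 and H4c17, which were not part of this check. Members called higher and lower ranged over the fits that leave out 1 library from 5 to 6 and from 11 to 16 in H4K91R against H4WT, and from 4 to 5 and from 12 to 16 in H4K91Q against H4WT. In H4K91Q against H4K91R the lower count of 1 became 2 without the filter, 0 with the compared groups only, and 0 to 1 when a library was left out; the higher count was 0 throughout. The added gene without the filter was H2ac13; the cause was not tested. With the replicate block the counts were 5 higher and 14 lower in H4K91R, 5 higher and 14 lower in H4K91Q, and 0 higher and 1 lower between the mutants. Its added calls were H3c2 in both mutants and H2ac22 in H4K91Q among the genes given in every library. With DESeq2 they were 5 higher and 11 lower in H4K91R, and 4 higher and 11 lower in H4K91Q. Scaling by library size, which by construction leaves out the TMM factors, gave summed levels of 732 CPM in H4K91R, 698 CPM in H4K91Q and 567 CPM in H4WT over all members. In H4K91R it gave 49.7 CPM for H2B; in H4K91Q it gave 329.7 CPM for H1, 45.5 CPM for H2B and 13.6 CPM for H4; and in H4WT it gave 246 CPM for H1 and 207 CPM for H2A. RLE scaling gave 48.1 CPM for H2B in H4K91R. Genes below about 1 CPM rest on few counts in the shallow libraries, and absence there was not detectable below the limit that a count of 0 allows.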
